A study of Danio rerio with 6 samples.

Results

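miR-21 and miR-210-5p are 2 mature microRNAs, out of 134 listed, that were counted in zebrafish primordial germ cells, the embryonic cells that later form eggs and sperm. They were chosen by name because their levels are highest at the latest stage of these libraries, so their levels are given as a description and without a test. All cells came from the AB strain and were picked by green fluorescence, and no other treatment is given in the labels. Cells were taken at 3 times after fertilization, counted in hours (hpf), with 2 libraries at each. The earliest, 6 hpf, is the shield stage. At 11 hpf the embryo has reached the 3-somite stage, and at 24 hpf it has reached prim-5. The sources used here do not name the reporter behind the fluorescence or the number of embryos behind a library. Whether the libraries of a stage are separate collections of cells is not stated in the labels, so a spread between them may be technical.

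A microRNA is a short RNA that guides Argonaute proteins to messenger RNAs carrying a match to its seed, bases 2 to 8 from its 5′ end, and lowers their output. miR-21 is expressed in many vertebrate tissues. In zebrafish it is known for its role in heart valve formation, and in mammals for repressing the tumour suppressor PDCD4. miR-210 is best known as the microRNA that hypoxia-inducible factor switches on when oxygen is low, and most of what is known of it, from mammalian cells, concerns its 3p arm. Only the 5p arm of miR-210 is among the listed microRNAs. No count is given for the 3p arm, and whether it had no reads or was not looked for is not stated.

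The mature sequences deposited by the authors are shown because the seed decides which messenger RNAs each microRNA can pair with. They are written as DNA, 5′ to 3′, with the seed in capitals.
miR-21: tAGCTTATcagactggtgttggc
miR-210-5p: aGCCACTGactaacgcacattg
miR-21 has 23 bases and miR-210-5p has 22, with a GC content of 47.8% and 50.0%, against medians of 22 bases and 45.5% over the 134 sequences. The seeds of the pair differ, and 0 of the other listed microRNAs carries either seed or its first 6 bases. The nearest other sequences lie at an edit distance of 9 from each: miR-122, miR-196a-5p and miR-458-3p for miR-21, and miR-1388-5p, miR-430a-5p and miR-430i-5p for miR-210-5p. Neither count therefore has a near-identical neighbour in the table with which reads could have been exchanged.

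RefSeq's zebrafish annotation (assembly GRCz12tu) has 2 genes for miR-21 and 1 for miR-210. The protein-coding neighbours of dre-mir-21-2 are vmp1, which encodes an autophagy protein, and tubd1, and those of dre-mir-21-1 are rps6kb1a and ptrh2. The gene mir210 overlaps a long non-coding RNA gene and lies between rassf7a and phrf1. The table has 1 row for mature miR-21, so the share of its 2 genes in these reads was not separated.

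Libraries held 35718 to 78973 microRNA reads. The miR-430 family, which clears maternal messenger RNAs in the early embryo, took 65.4% to 90.6% of them and a smaller share at each later stage. Levels are therefore given as a percentage of the reads outside that family, of which there were 4429 and 6008 at 6 hpf, 8983 and 7404 at 11 hpf, and 17602 and 27293 at 24 hpf. Because PCR copies molecules before they are read, all intervals and floors cover counting error only. The protein-coding genes that define germ cells were not measured in this table.

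miR-21 was present at all 3 stages and highest at 24 hpf. Its reads numbered 11 and 63 at 6 hpf, 114 and 66 at 11 hpf, and 394 and 674 at 24 hpf. As a percentage, that was 0.248% and 1.05% of the reads outside the miR-430 family at 6 hpf, 1.27% and 0.891% at 11 hpf, and 2.24% and 2.47% at 24 hpf. Both 24 hpf libraries lay above all 4 earlier ones, while the 6 and 11 hpf libraries overlapped. The stage means were 0.648% ± 0.566 (SD, n = 2), 1.08% ± 0.267 and 2.35% ± 0.163.

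The spread was widest at the earliest stage. In the 6 hpf libraries the higher share of miR-21 was 4.22 times the lower one, against 1.42 times at 11 hpf and 1.10 times at 24 hpf. The Wilson 95% intervals of the 6 hpf libraries, 0.139% to 0.444% and 0.820% to 1.34%, did not overlap, so these libraries differed by more than counting error. Those at 24 hpf, 2.03% to 2.47% and 2.29% to 2.66%, did overlap. By read count among the microRNAs outside the miR-430 family, miR-21 ranked 38 and 19 at 6 hpf, 15 and 17 at 11 hpf, then 6 and 4 at 24 hpf.

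The 24 hpf mean of miR-21 was 3.63 times the 6 hpf mean and 2.18 times the 11 hpf mean, and the 11 hpf mean was 1.67 times the 6 hpf mean. The ratio of 24 to 6 hpf was 2.24 without 6 hpf replicate 1 and 9.48 without 6 hpf replicate 2. The ratio of 11 to 6 hpf was 1.03 and 4.35 with the same libraries left out. In this description the difference between 6 and 11 hpf thus rested on which 6 hpf library was used, while that between 11 and 24 hpf stayed between 1.85 and 2.64 with any 1 library left out.

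miR-210-5p was seen at 24 hpf and at no earlier stage. Its reads numbered 0 in each library at 6 and 11 hpf, and 26 and 42 at 24 hpf. A count of 0 allowed a share of up to 0.0677% and 0.0499% at 6 hpf, or 0.0334% and 0.0405% at 11 hpf, taking 3 reads as the floor. The 24 hpf shares were 0.148% (Wilson 95% interval 0.101% to 0.216%) and 0.154% (0.114% to 0.208%), both above those floors. The 24 hpf libraries gave nearly the same share, with a mean of 0.151% ± 0.00437 (SD, n = 2).

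Against a floor of 3 reads over a stage, miR-210-5p was at least 5.25-fold higher at 24 hpf than at 6 hpf and at least 8.24-fold higher than at 11 hpf. With either 6 hpf library left out, the bound against 6 hpf was 3.02 and 2.23, and with either 11 hpf library left out the bound against 11 hpf was 3.72 and 4.52, since the same 3 reads were then set against fewer total reads. These bounds are not firm beyond counting error. Over all microRNAs and stages there were 50 cases in which 1 library of a stage held at least 10 reads of a microRNA and the other held 0. No ratio between 6 and 11 hpf is given, as both stages were at 0.

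**Figure D1:**
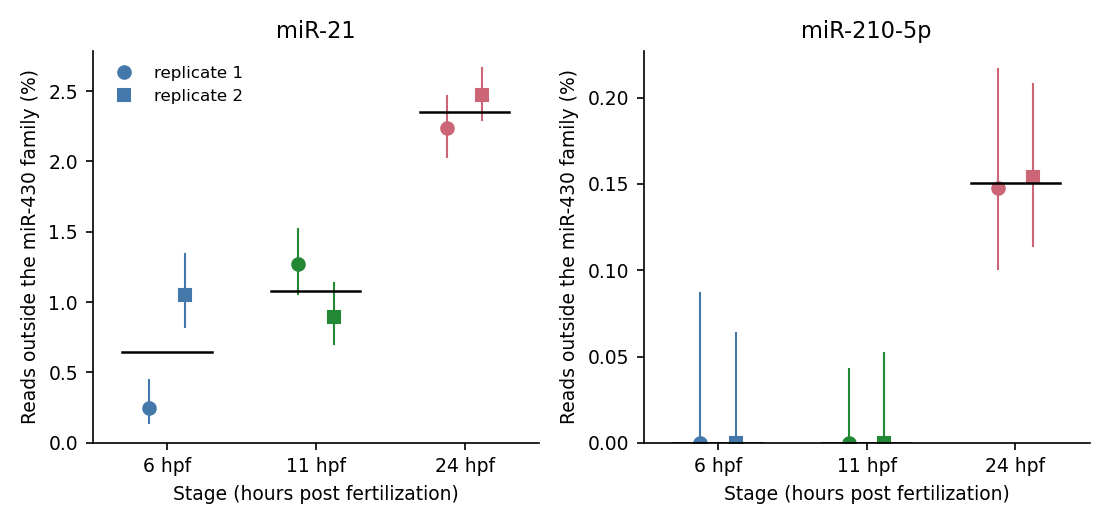
Level of miR-21 and miR-210-5p in each library, as a percentage of the microRNA reads outside the miR-430 family, at 6, 11 and 24 hpf. Circles are replicate 1 and squares replicate 2, vertical lines are Wilson 95% intervals for counting error, and black bars are stage means. miR-21 is at 2.24% and 2.47% at 24 hpf, above all earlier libraries, and miR-210-5p is at 0 before 24 hpf.

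This arrangement of libraries was shared by other microRNAs. Of the 127 microRNAs outside the miR-430 family, 25 (19.7%) had 24 hpf libraries that both exceeded the pair at 6 hpf, and 17 (13.4%) had 24 hpf libraries that both exceeded the pair at 11 hpf. miR-21 and miR-210-5p are among these by their choice. In 15 (11.8%) the 11 hpf libraries both exceeded the pair at 6 hpf, and neither member is among those. 24 of the 127 had 0 reads in the 4 earlier libraries, and 8 of these, miR-210-5p included, had reads in both 24 hpf libraries. Of these 8, 5 had at least as many 24 hpf reads as miR-210-5p, itself included: the others were miR-10c-5p, miR-16c-5p, miR-182-5p and miR-19a-3p.

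At 24 hpf miR-21 had far more reads than miR-210-5p. Whether reads of different sequences stand in the same proportion as their molecules was not tested. miR-21 had 15.2 and 16.0 reads for each read of miR-210-5p in the 24 hpf libraries, a ratio within a library that no scaling changes. In the order of mean 24 hpf levels outside the miR-430 family miR-21 stood at 5, after miR-100-5p (3.29% ± 1.18; SD, n = 2) and let-7a (2.38% ± 0.0232) and before miR-92b-3p (2.18% ± 0.0555) and miR-25-3p (2.01% ± 1.01). The 24 hpf libraries of miR-21 overlapped with those of let-7a, miR-100-5p and miR-25-3p. They did not overlap with those of miR-92b-3p, at 2.14% and 2.22%, which lie just below. miR-210-5p stood at 46, after miR-125a (0.176% ± 0.0318) and miR-181a-3p (0.171% ± 0.00125) and before miR-126a-3p (0.146% ± 0.0940) and miR-30d (0.141% ± 0.0178). Its 24 hpf libraries did not overlap with those of miR-181a-3p, at 0.170% and 0.172%, and met or overlapped with those of the other 3.

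How much higher miR-21 stood at 24 hpf depended on what its reads were divided by. As a share of all microRNA reads it was 0.0308% and 0.0987% at 6 hpf, 0.252% and 0.137% at 11 hpf, and 0.589% and 0.853% at 24 hpf. On this scale the 3 stages did not overlap, and the 24 hpf mean was 11.1 times the 6 hpf mean. Of the 127 microRNAs, 22.0% stood higher without overlap at 11 than at 6 hpf on it, 26.8% at 24 than at 11 hpf and 32.3% at 24 than at 6 hpf. The RPM values deposited by the authors, which refer to library totals of 9019179 to 21230244 reads, were 1.05 and 5.20 at 6 hpf, 7.98 and 7.32 at 11 hpf, and 33.6 and 31.7 at 24 hpf. On that scale the stages did not overlap either, and the ratio of 24 to 6 hpf was 10.5. The corresponding shares of the 127 were 22.8%, 28.3% and 34.6%.

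The microRNA that took the largest part of the reads outside miR-430 at 24 hpf was miR-26a-5p, a broadly expressed microRNA, which made up 14.5% ± 0.536 (SD, n = 2) of them at 6 hpf. It made up 24.5% ± 0.545 at 11 hpf and 41.1% ± 3.01 at 24 hpf. The corresponding shares of miR-92a-3p, a product of the miR-17-92 cluster, were 23.6% ± 3.40, 27.4% ± 4.14 and 21.1% ± 1.34. With both also left out of the total, a choice made after seeing the data, miR-21 made up 0.415% and 1.64% of the rest at 6 hpf, 2.47% and 1.99% at 11 hpf, and 5.74% and 6.74% at 24 hpf. The stages then did not overlap, and the ratio of 24 to 6 hpf was 6.07. With TMM effective library sizes, which are set so that most microRNAs differ little, that ratio was 4.56, and the 6 and 11 hpf libraries overlapped again. Stages lay in order without overlap for 13 of the 127 microRNAs by all microRNA reads, 13 by the authors' totals, 7 with the 2 abundant microRNAs left out, 6 by TMM and 3 by reads outside miR-430.

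**Figure D2:**
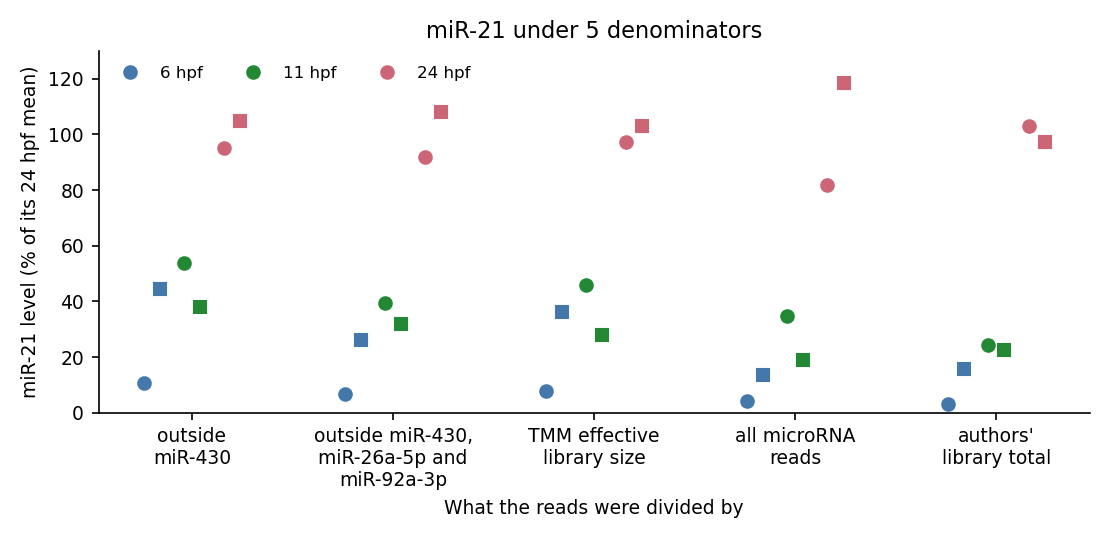
miR-21 in each library as a percentage of its own 24 hpf mean, with its reads divided by 5 different totals. Colours are stages, circles replicate 1 and squares replicate 2. The 24 hpf libraries are above all others under each of the 5 totals, while 6 hpf replicate 2 lies between the 11 hpf libraries when reads are divided by those outside miR-430 or by the TMM effective library size.

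Ratios to another microRNA of the same library need no total. For each 100 reads of miR-26a-5p there were 1.76 and 7.06 reads of miR-21 at 6 hpf, 5.26 and 3.58 at 11 hpf, and 5.75 and 5.72 at 24 hpf. The 24 hpf values lay above both 11 hpf values but between the 6 hpf values. Against miR-26a-5p the libraries of miR-21 at 24 hpf thus did not stand above all earlier ones, as 6 hpf replicate 2 was higher. For each 100 reads of let-7a, of the let-7 family that promotes differentiation in many animals, there were 5.73 and 29.3 reads of miR-21 at 6 hpf, 33.5 and 32.2 at 11 hpf, and 94.7 and 103 at 24 hpf. Against let-7a the stages did not overlap, and the pair of microRNAs stood at about equal numbers of reads at 24 hpf. The gap between 29.3 in 6 hpf replicate 2 and 32.2 in 11 hpf replicate 2 was small, with 63 and 66 reads of miR-21. The share of let-7a itself outside miR-430 was lower at 24 hpf. It was 4.34% and 3.58% at 6 hpf, 3.78% and 2.77% at 11 hpf, and 2.36% and 2.40% at 24 hpf.

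**Figure D3:**
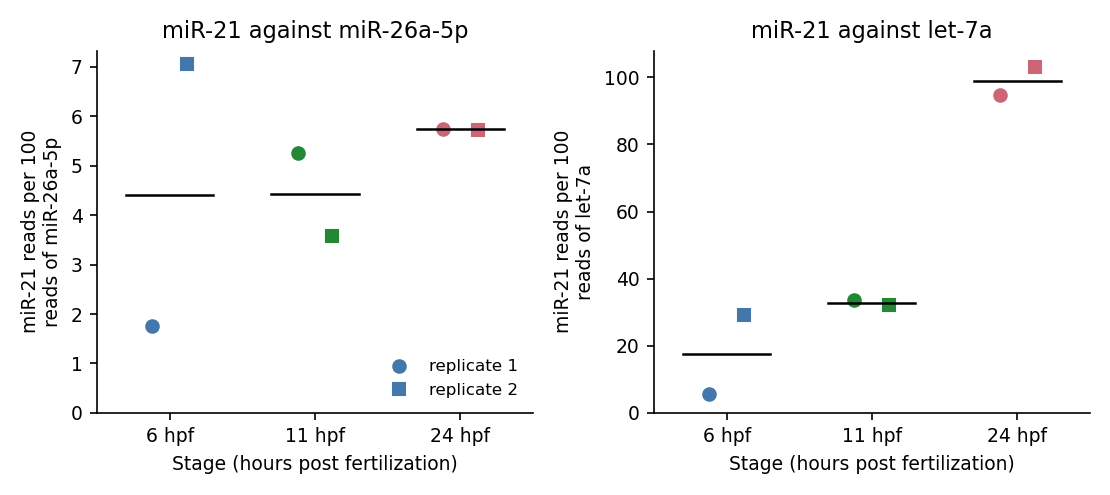
Reads of miR-21 per 100 reads of miR-26a-5p (left) and of let-7a (right) in each library at 6, 11 and 24 hpf. Circles are replicate 1, squares replicate 2 and black bars stage means. Against miR-26a-5p the 24 hpf libraries, at 5.75 and 5.72, lie within the range of the 6 hpf libraries, and against let-7a they lie above all earlier libraries.

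Patterns over the 6 libraries were compared by Pearson's r on log2 of the share outside miR-430 with 0.5 reads added, over 62 other microRNAs that passed a filter on low counts and lie outside the miR-430 family. Libraries are shared between all microRNAs, as is their depth, and r is given as a description. The 5 most like miR-21 were miR-26a-5p (r = 0.84), miR-363-3p (0.78), miR-92b-3p (0.77), miR-222a-3p (0.76) and miR-146b (0.74). The counts of miR-363-3p, which belongs to the seed family of miR-92, were 1 and 53 (6 hpf), 40 and 111 (11 hpf) and 174 and 181 (24 hpf). Like miR-21 it was lower in replicate 1 than in replicate 2 at 6 hpf, but at 11 hpf the order of its replicates was opposite to that of miR-21. As a share outside miR-430, its mean was 0.452% at 6 hpf, 0.972% at 11 hpf and 0.826% at 24 hpf. By share it was thus not highest at 24 hpf. miR-92b-3p of the same family had 1 and 2, 123 and 93, and 377 and 606 reads at the 3 stages, and so lay below miR-21 at 6 hpf, close to it at 11 hpf and just below it at 24 hpf. miR-146b, known for dampening NF-kB signalling, had 0 reads at 6 hpf, 32 and 11 at 11 hpf, and 51 and 158 at 24 hpf. With shares of all microRNA reads, 4 of these 5 were again among the 5 most alike, and miR-363-3p was not.

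The 5 most like miR-210-5p were miR-182-5p (r = 0.9996), miR-16c-5p (0.99), miR-10c-5p (0.99), miR-206-3p (0.96) and miR-140-3p (0.94), the same 5 with shares of all microRNA reads. miR-182-5p, a sensory organ microRNA, had 0 reads at 6 and 11 hpf and 49 and 82 at 24 hpf. miR-16c-5p, of the miR-15/16 family, had 48 and 41 at 24 hpf, and miR-10c-5p, encoded among Hox genes, had 107 and 79, both with 0 before. miR-206-3p, a skeletal muscle microRNA, had 1 read in 1 of the 11 hpf libraries and 51 and 50 at 24 hpf. miR-140-3p, a cartilage microRNA, was seen in all 6 libraries, with 3 and 1, 4 and 5, and 96 and 134 reads. Where a microRNA is at 0 in the earlier libraries, its values there are set by the added 0.5 reads and the depth, which are the same for all such microRNAs. miR-21 and miR-210-5p had r = 0.63 with each other, the 11th highest for miR-21 and the 14th highest for miR-210-5p.

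**Figure D4:**
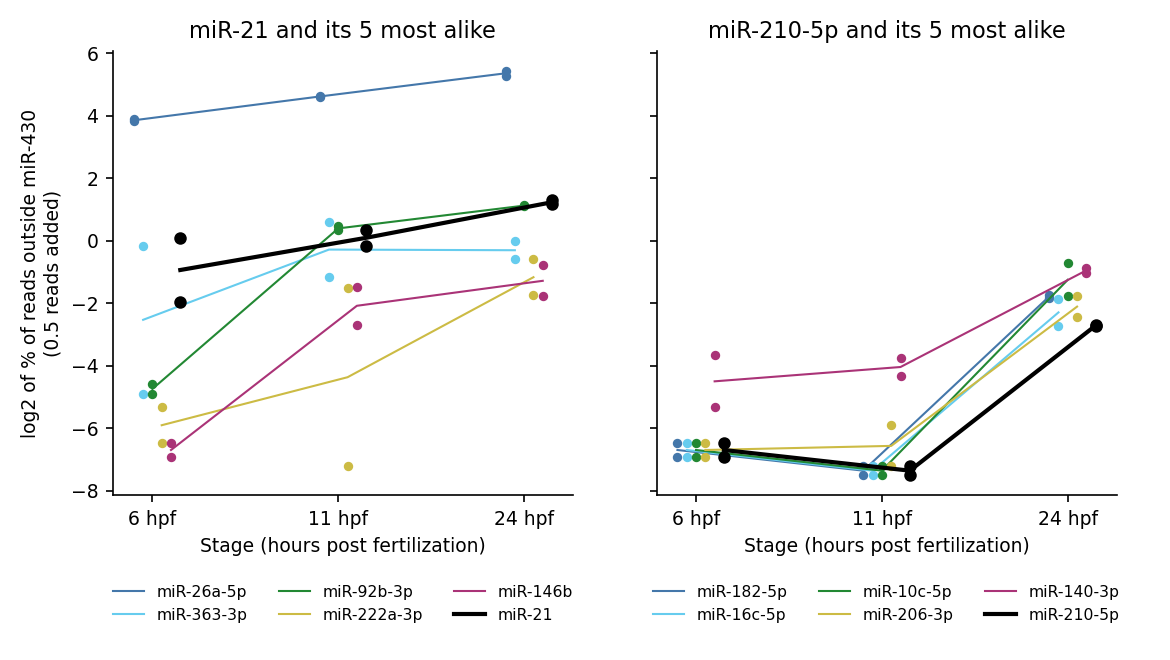
log2 of the percentage of reads outside miR-430, with 0.5 reads added, for miR-21 (left) and miR-210-5p (right) in black and the 5 microRNAs most like each in colour. Points are libraries, placed side by side by microRNA within a stage, and lines join the stage means. In the right panel 4 of the 5 have at most 1 read before 24 hpf, and miR-140-3p has 1 to 5 reads per library there.

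Changes in other microRNAs were tested with edgeR's quasi-likelihood test over 69 microRNAs that passed the filter, with an adjusted p under 0.05 called a change. Both members passed the filter, miR-210-5p through its 24 hpf libraries alone. Between 6 and 24 hpf 6 of the 69 rose (8.7%) and 6 fell (8.7%). Of the members, miR-210-5p was among the 6 that rose and miR-21 was not, and since both were chosen on these libraries nothing is read from this. The 6 rises also include miR-182-5p and miR-140-3p, and the 6 falls include miR-92a-5p. Their calls are set aside below, so each 8.7% counts calls that are not used. Between 6 and 11 hpf 1 rose (1.45%) and 3 fell (4.35%). Between 11 and 24 hpf edgeR called 0, with 14 (20.3%) at an unadjusted p under 0.05, while DESeq2 called 3. The 12 calls between 6 and 24 hpf became 4 and 0 without 6 hpf replicates 1 and 2, 28 and 24 without 11 hpf replicates 1 and 2, and 2 and 1 without 24 hpf replicates 1 and 2, so every call between these stages was lost in at least 1 such fit. The 4 calls between 6 and 11 hpf became 0 without 6 hpf replicate 2, and 2 without 11 hpf replicate 1 or without 24 hpf replicate 1.

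Other microRNAs reported to respond to low oxygen in mammalian cells were considered because miR-210 is the best known of them and miR-21 is often named with it. 18 mature microRNAs in the table matched that list by name, the 2 members left out, and 8 were tested. Between 6 and 24 hpf 1 of the 8, miR-26a-5p, rose, with a log2 difference of 1.87 and an SE of 0.14 (edgeR adjusted p = 0.0047). Of the rest 0 fell and 7 did not pass, and the 1 of 8 stands against 8.7% of all 69 that rose. The rises behind that 8.7% include miR-26a-5p itself. They also include miR-210-5p, miR-182-5p and miR-140-3p, whose calls are not used, so nothing is read from the comparison. The median log2 difference was 0.06 over the 8 and -0.36 over all 69, also with stages at 0 reads set to the floor of 3 reads. The median over all 69 was 0.18 with RLE size factors and 0.74 with library size only. Relative to it the median of the 8 stood at 0.42, 0.41 and 0.35 under the 3 scalings, and miR-26a-5p at 2.23, 2.24 and 2.27. The name match left out miR-199-3p (-0.52, SE 0.68) and miR-199-5p (-0.94, SE 0.39), though miR-199a is on that list. With TMM and with these counted, the median of the list would not lie above that of all 69, so nothing is read from it. 0 of the 8 passed between 6 and 11 hpf, or between 11 and 24 hpf. Among those that did not pass between 6 and 24 hpf, miR-103 stood at -1.09 (SE 0.40), miR-125b-5p at 0.57 (SE 0.47) and miR-30b at 0.48 (SE 0.72). miR-181a-3p stood at -0.63 (SE 1.62) and miR-181a-5p at -0.37 (SE 0.49). miR-26a-3p, the other arm of miR-26a, had 0 and 36 reads at 6 hpf and 0 at 24 hpf. miR-181a-5-3p had 0 reads at 6 hpf, and 42 and 0 at 24 hpf. The summed share of the 18 was 17.7% to 18.4% outside miR-430 at 6 hpf, 26.7% to 28.3% at 11 hpf and 42.2% to 44.8% at 24 hpf, and most of it was miR-26a-5p.

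Endothelial and heart microRNAs were considered because of the role of miR-21 in the heart valve. 16 were listed, and their summed share, most of it miR-92a-3p, was 28.0% to 33.4% at 6 hpf, 25.3% to 30.5% at 11 hpf and 20.7% to 22.6% at 24 hpf. Of 4 tested, 0 rose and 1 fell between 6 and 24 hpf, against 8.7% of all 69 in each direction, which with 4 tested cannot be told from that share. The 1 was miR-92a-5p, whose counts were 273 and 304 at the earlier stage against 1 and 3 at the later. With 28 and 1 reads at 11 hpf, it would not have passed the filter without its 6 hpf libraries, so its call is not used. The endothelial microRNA miR-126a-3p had 16 and 24 reads at 6 hpf, 38 and 6 at 11 hpf, and 14 and 58 at 24 hpf, and did not pass (-1.02, SE 1.06). The heart and muscle microRNA miR-499-5p had 0 reads in 5 libraries and 22 in 24 hpf replicate 2. The name match for this list left out miR-222a-3p, named above among the 5 most like miR-21. Its mean share outside miR-430 went from 0.00832% at 6 hpf to 0.173% at 11 hpf and 0.481% at 24 hpf. Its reads numbered 0 and 1 at 6 hpf, 31 and 0 at 11 hpf, and 117 and 81 at 24 hpf. The 11 hpf mean thus came from replicate 1 alone. miR-222a-3p was tested but not called between 6 and 24 hpf. As it would not have passed the filter without its 24 hpf libraries, nothing is read from that test. The lack of a rise therefore covers the 4 tested members only. These were miR-126a-3p, miR-92a-3p, miR-92a-5p and miR-92a-2-5p, so all but miR-126a-3p are miR-92a products. miR-92a-2-5p had 31 and 65 reads at 6 hpf and 0 at 11 and 24 hpf.

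The libraries also held microRNAs typical of other cell types, and some were higher at 24 hpf together with miR-21 and miR-210-5p. All 3 listed sensory microRNAs had reads at 24 hpf, and their summed share was 0.0226% to 0.0333% at 6 hpf, 0.0945% to 0.479% at 11 hpf and 0.994% to 1.18% at 24 hpf. Most of the 24 hpf sum was miR-183-5p, at 0.568% and 0.879%. Its reads numbered 1 and 0, 40 and 3, and 100 and 240 at the 3 stages. It was not called between 6 and 24 hpf, and would not have passed the filter without its 24 hpf libraries. miR-96-5p had 26 reads in 24 hpf replicate 1 and 1 in replicate 2. miR-182-5p of that list, at 0 before 24 hpf, passed the filter through its 24 hpf libraries alone, as miR-210-5p did, so its call between 6 and 24 hpf is not used. The 3 listed muscle microRNAs summed to 0.166% to 0.226%, 0.230% to 0.234% and 0.335% to 0.363%. Of these miR-1 and miR-206-3p were tested, and neither passed between 6 and 24 hpf. Their values lay in opposite directions. miR-1 stood at a log2 difference of -1.06 (SE 0.56, edgeR adjusted p = 0.235). miR-206-3p had 0 reads at 6 hpf and 51 and 50 at 24 hpf. It too passed the filter through its 24 hpf libraries alone, so its p is not given.

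Summed shares of the remaining lists were lower at 24 hpf than before or overlapped between stages. The 8 listed mesenchyme microRNAs summed to 6.24% to 6.39% at 6 hpf, 3.90% to 5.80% at 11 hpf and 2.88% to 2.97% at 24 hpf, while 1 of them, miR-140-3p, was higher at 24 hpf. It had 1 to 5 reads in each earlier library and so entered the test through its 24 hpf libraries, with 96 and 134 reads, and its call is not used. The median log2 difference of the 6 tested was -0.84 between 6 and 24 hpf. No other of the 6 was called between these stages. With so few tested, that cannot be told from the 8.7% of all 69 called in each direction. The 8 neural microRNAs summed to 0.200% to 0.610%, 0.178% to 0.419% and 0.205% to 0.545%, with the neuronal miR-124-3p at 0 in 5 libraries and 32 reads in 24 hpf replicate 1. The 3 epithelial ones summed to 0.406% to 0.982%, 0.108% to 0.134% and 0.0660% to 0.108%. The 4 endodermal ones summed to at most 0.339%, 0.257% and 0.183%, with the liver microRNA miR-122 at 0 at 11 and 24 hpf. All of the 0.183% was miR-375, a microRNA of pancreatic islets, which had 50 reads in 24 hpf replicate 2, 1 read at 11 hpf and 0 in the other 4 libraries. Of 7 blood microRNAs looked for by name, 0 matched a listed microRNA, so no level is given for them. The part of other cell types in the levels of miR-21 and miR-210-5p was not tested. More cells that contain a microRNA and more of it in each cell cannot be told apart in these pooled cells.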

How the data were processed

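The deposited table gives, per mature microRNA and library, its sequence, a raw read count and an RPM value, both deposited by the authors. Per the submitters' processing notes, Bowtie 1.0.0-5 and danRer11 were used. The microRNA annotation and the rule for reads with several matches are not stated in those sources. Each RPM value of the authors is the count over a library total, scaled to RPM.

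The members were found by name. The members, lists and alternatives were chosen with earlier results of these data known. Named besides them were, per member, the 5 microRNAs with the highest r and the 2 on either side in the 24 hpf order, and list members that passed or were abundant. A few list members beyond this rule were named after their values were seen. Levels are shares of reads outside the miR-430 family, and ratios are between stage means. With 0 reads in a stage, 3 reads over that stage gave a lower bound.

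edgeR 4.0.16 (R 4.3.3) was used to test the counts (filterByExpr with a minimum count of 10, TMM, all 6 libraries, stage as the only term, Benjamini-Hochberg over 69 microRNAs). The SE is the log2 difference divided by the square root of F. The scripts were tested on simulated data. Wilson intervals came from SciPy 1.17.1. Alternatives used DESeq2 1.42.0, other scalings, other filters, the replicate number as a term and each library left out. Libraries of a stage differed by more than sampling noise, and no sample was merged.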

Additional observations from a re-analysis of the deposited data

How the results depend on the processing

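Both members were chosen for being highest at 24 hpf, and were so under every total used and with any 1 library left out. For miR-210-5p, with 0 reads at the earlier stages, no total could change this. For miR-21, whose 24 hpf libraries both lay above all earlier ones, leaving 1 library out could not change it either. The sizes of the ratios did depend on these choices. With all microRNA reads as the total, the ratios of miR-21 were 3.71 (24 to 11 hpf) and 11.1 (24 to 6 hpf), and with the authors' totals 4.27 and 10.5. The bounds of miR-210-5p against 11 hpf were 14.3, 16.3, 10.4 and 10.6 with all microRNA reads, the authors' totals, TMM sizes and the total without miR-26a-5p and miR-92a-3p, and those against 6 hpf were 15.3, 15.8, 6.73 and 8.65. With 1 library left out, miR-21 ranged from 1.03 to 4.35 (11 to 6 hpf), 1.85 to 2.64 (24 to 11 hpf) and 2.24 to 9.48 (24 to 6 hpf), and the bounds of miR-210-5p from 3.72 to 8.41 and from 2.23 to 5.35. Summing reads before dividing moved no ratio beyond the spread between libraries.

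Both members were chosen on these libraries, so how often the alternatives called them is not used. The counts of calls below are over all microRNAs tested. Calls between 6 and 11 hpf numbered 4, with 1 when the miR-430 family was left out, 7 with DESeq2, and 0 to 3 with a library left out. Between 11 and 24 hpf they numbered 0, with 8 by RLE size factors, 3 by DESeq2 and 0 with any library left out. Between 6 and 24 hpf they numbered 12, with 5 without a filter and 0 to 28 with a library left out. Library size alone moved the split between 6 and 24 hpf from 6 rises and 6 falls to 12 and 4. The replicate block gave 3, 0 and 4 calls. Deviations of equal replicate numbers correlated at 0.14, 0.06 and -0.24 between stages, so the numbers were not taken to pair libraries. With 2 libraries a stage and 4429 to 27293 reads outside miR-430, depth limits what is seen at 6 hpf most. Causes of these shifts were not tested.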
